A study of Mus musculus with 36 samples.

Results

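The circular RNAs (circRNAs) of ion channel host genes were described in the hippocampus and frontal cortex of the mouse around the light-dark cycle. A circRNA was assigned to this group when both ends of its head-to-tail junction lay inside a protein-coding gene of GENCODE M21, on the same strand, whose symbol starts with Kcn, Cacn, Scn, Hcn, Trpc, Trpm, Ryr, Itpr, Clcn or Ano. Of 33261 circRNAs listed in either tissue, 660 met this rule. Kept were circRNAs that 2 or more replicates of a single time point listed, which left 159 ion channel circRNAs from 49 host genes, of 6656 kept circRNAs in all (2.39%). The rule takes in pore-forming subunits together with auxiliary subunits such as Cacna2d1, Kcnab1 and Kcnip4. None of the 159 had a second protein-coding host on the same strand.

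Tissue came from C57BL/6 mice kept in a cycle of light and dark, untreated and without any engineered allele named in the labels. Hippocampus and frontal cortex were each sampled at 6 zeitgeber times (ZT), of which ZT1, ZT5 and ZT9 fall in the light and ZT13, ZT17 and ZT21 in the dark. Each time point had 3 replicates, 36 samples in all. Per the study's methods the mice were C57BL6/N males of 9 to 10 weeks, and the frontal lobe was collected as the cortical sample. Different time points are different animals, and it is not stated whether the hippocampus and cortex of one number come from the same mouse.

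A circRNA forms when the splice donor at the end of an exon is joined back to the acceptor at the start of the same or an earlier exon, which leaves a closed ring without cap or poly(A) tail. Neuronal genes with long introns give rise to many of them. Ion channels set the resting potential, shape the action potential and let calcium into the cell, and their genes are long and have many exons. In these data a circRNA is counted through the reads that cross its back-splice junction, so the values measure the circle and not the channel's mRNA or protein.

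Totals of circular reads ranged from 6754 to 73252 per hippocampus sample and from 8107 to 34803 per frontal cortex sample. The smallest count listed was 2, so a value of 0 stands for fewer than 2 reads. In 3 libraries the depth stood apart. They were hippocampus ZT13 replicate 1 with 6754 reads, frontal cortex ZT9 replicate 3 with 8107 and hippocampus ZT1 replicate 3 with 73252. Junction reads of ion channel circRNAs made up 2.25% ± 0.22 (SD, n = 18) of the reads of kept circRNAs in hippocampus and 2.23% ± 0.0786 (SD, n = 18) in frontal cortex. Between 26 and 108 of them were found per hippocampus sample and between 27 and 76 per frontal cortex sample, both extremes of the hippocampus being the libraries with the least and the most reads. As a check of the tissue labels, kept circRNAs of the hippocampus marker genes Prox1, Zbtb20, Rfx3 and Grik4 held 0.423% ± 0.0983 of reads in hippocampus and 0.126% ± 0.0441 in frontal cortex (SD, n = 18 each). The other 6 genes of that list had no kept circRNA. Of the cortical markers, Mef2c had 2 reads over all hippocampus and 28 over all frontal cortex samples, Foxp1 had 75 and 85, and Bcl11b went the other way with 152 and 57.

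The back-splice junctions below belong to 9 circRNAs that differed between the tissues and, for comparison within their hosts, to 2 further Kcnt2 circles and 1 further Ryr2 circle. Each is written 5′ to 3′ on the strand of the gene, with the last 30 bases before the junction in lower case and the first 30 bases after it in capitals. The sequences come from the GENCODE M21 transcripts (GRCm38), with exons counted from the 5′ end of the transcript named.
Kcnj6 exon 3 (Kcnj6-202, chr16:94832299-94833219, minus strand): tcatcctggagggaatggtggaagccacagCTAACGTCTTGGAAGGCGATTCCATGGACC
Kcnt2 exons 4 to 13 (Kcnt2-203, chr1:140362949-140450304, plus strand): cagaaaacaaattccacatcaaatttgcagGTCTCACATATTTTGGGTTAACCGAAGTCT
Kcnt2 exons 4 to 8 (Kcnt2-203, chr1:140362949-140383095, plus strand): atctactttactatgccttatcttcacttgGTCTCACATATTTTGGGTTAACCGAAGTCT
Kcnt2 exons 9 to 13 (Kcnt2-203, chr1:140425193-140450304, plus strand): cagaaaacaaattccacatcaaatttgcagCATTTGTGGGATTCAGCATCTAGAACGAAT
Kcnh1 exons 2 to 5 (Kcnh1-201, chr1:192221333-192242037, plus strand): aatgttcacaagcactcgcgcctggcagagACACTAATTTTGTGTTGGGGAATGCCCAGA
Kcnh5 exons 2 to 6 (Kcnh5-201, chr12:75114191-75154281, minus strand): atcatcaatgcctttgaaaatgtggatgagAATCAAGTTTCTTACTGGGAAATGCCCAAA
Kcnk10 exons 2 to 4 (Kcnk10-202, chr12:98489905-98518832, minus strand): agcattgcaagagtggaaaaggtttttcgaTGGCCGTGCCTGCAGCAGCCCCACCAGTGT
Cacna1c exons 2 to 3 (Cacna1c-222, chr6:119052601-119057515, minus strand): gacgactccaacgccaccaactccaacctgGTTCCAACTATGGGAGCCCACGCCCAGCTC
Cacna1b exons 8 to 9 (Cacna1b-202, chr2:24719045-24720056, minus strand): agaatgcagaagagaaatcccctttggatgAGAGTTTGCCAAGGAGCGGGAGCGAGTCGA
Ryr2 exons 24 to 29 (Ryr2-201, chr13:11759671-11785141, minus strand): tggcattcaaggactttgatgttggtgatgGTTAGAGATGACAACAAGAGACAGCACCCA
Ryr2 exons 59 to 62 (Ryr2-201, chr13:11680966-11688013, minus strand): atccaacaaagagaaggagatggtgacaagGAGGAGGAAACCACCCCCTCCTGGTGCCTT
Trpc6 exons 4 to 10 (Trpc6-201, chr9:8634047-8658377, plus strand): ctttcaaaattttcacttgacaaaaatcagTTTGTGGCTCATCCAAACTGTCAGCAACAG

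The 3 Kcnt2 junctions show how circRNAs of one host share ends. The circles of exons 4 to 13 and of exons 4 to 8 have the same 30 bases in capitals, because both begin at the acceptor of exon 4. The circle of exons 9 to 13 has the lower-case bases of the first, because both end at the donor of exon 13. The Kcnh1 and Kcnh5 circles both begin at exon 2 of their transcripts, and 20 of the 30 bases after the junction are the same in these related genes.

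Most ion channel circRNAs had their ends on the ends of annotated exons. Junction reads show only these ends, and the exons between them were taken from the annotation. Both ends fell exactly on annotated exon ends of one transcript for 142 of 159 (89.3%), beside 88.0% of all 6261 kept circRNAs with a protein-coding host. Among these 142, the median spliced length was 546.5 bases, against 571 for all, and the median number of exons was 4 in both sets. A single exon made up 8 of the 142 (5.63%, against 5.34% of all). The circle lay wholly within coding sequence for 136 of 142 (95.8%), against 80.9% of all, and began at exon 2 for 26 (18.3%), against 33.4%. Its length was a multiple of 3 in 50 of 142 (35.2%), against 38.4% of all. The flanking introns had median lengths of 18033.5 bases upstream and 18443 bases downstream, against 13166 and 10926 for all kept circRNAs. These are descriptions of the annotation without a test.

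The widest circle on the genome joined exons 2 and 5 of Cacna1c over 281099 bases and had 8 reads, all from hippocampus. The narrowest was exon 2 of Scn8a, 330 bases, with 40 reads in hippocampus and 31 in frontal cortex. Counting all annotated exons between the ends, the longest was the Itpr1 circle of exons 13 to 44 (4521 bases, 6 reads). The shortest was the Kcnab2 circle of exons 7 to 8 (90 bases, 33 and 2 reads).

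Kcnt2, which encodes the sodium-activated potassium channel Slick, gave rise to 11 circRNAs, the most of any ion channel gene. It was followed by Ryr2 and Cacna1c with 10 each, Cacna2d1 and Kcnh7 with 8 each, Ano4 with 7, and Cacna1a, Cacna2d3 and Kcnh5 with 6 each. A single kept circRNA came from 21 of the 49 hosts, Kcnj6 and Trpc6 among them. Of 123 circles on exon ends in hosts with more than one such circle, 89 shared an end with another circle of the same host. At Kcnt2 the acceptor of exon 4 and the donor of exon 13 were each used by 4 of the 11 circles. The donor of exon 7 of Kcnh5 was used by 4 of its 6 circles.

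**Figure D1:**
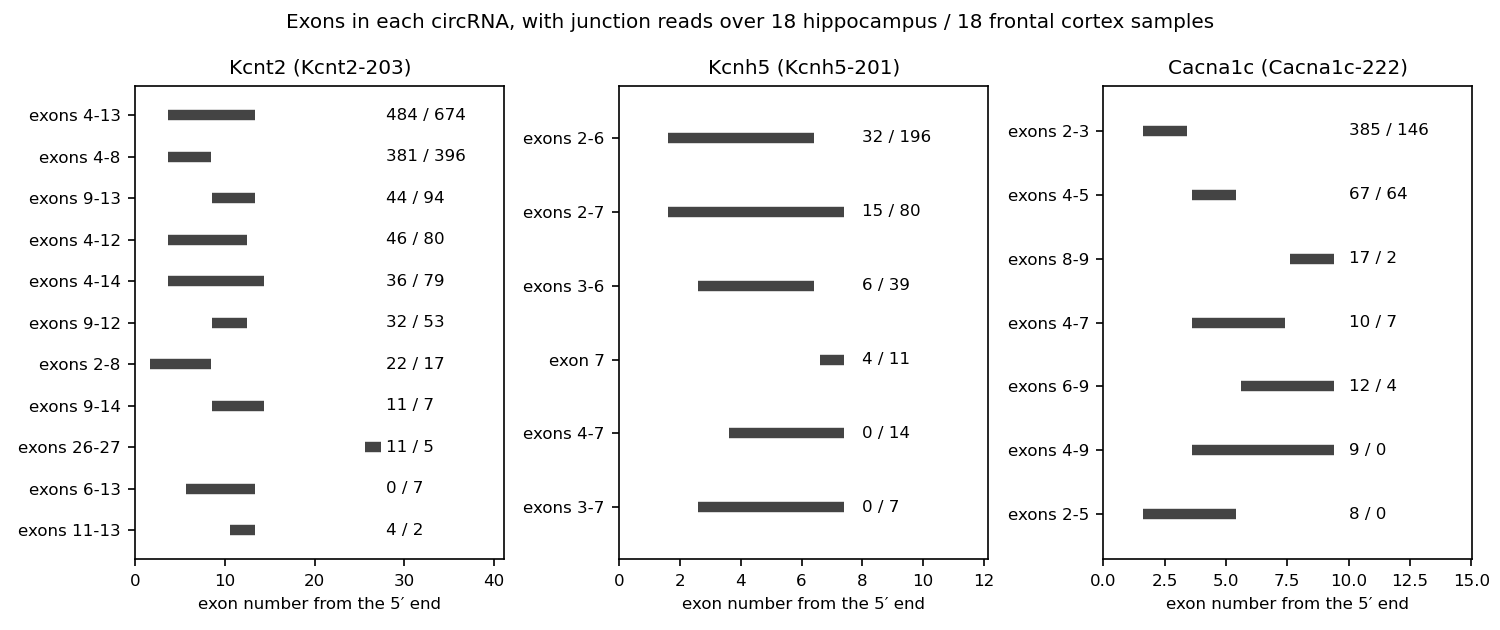
Annotated exons between the ends of each circRNA (bars) of Kcnt2, Kcnh5 and Cacna1c whose ends lie on exon ends. The x axis gives the exon number in the transcript named above each panel. Junction reads over 18 hippocampus samples and 18 frontal cortex samples are written to the right of each bar. Of the 11 Kcnt2 circles, 10 lie between exons 2 and 14, and 4 of the 6 Kcnh5 circles were kept through frontal cortex alone.

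Reads were concentrated in few circles. The 12 circRNAs with the most reads held 8341 of 15637 reads (53.3%), whereas 66 of 159 had fewer than 20 reads over all 36 samples. The median ion channel circRNA had 29 reads and the median kept circRNA 31. By family, the calcium- and sodium-activated potassium channels (Kcnma1, Kcnn2, Kcnt2) held 19.7% of reads and the pore-forming calcium channel subunits (Cacna1) 14.3%. The ryanodine receptors (Ryr), which release calcium from the endoplasmic reticulum, held 13.1%. Kcnj6 held 9.27% with 1 circle, the Trpc cation channels 8.54% and the Kcnh potassium channels 6.73%. Among the families with few reads were the Clcn family with 121 reads, all from the Clcn4 circle of exons 3 to 4, the pore-forming and silent voltage-gated potassium subunits outside Kcnq and Kcnh with 38 reads (Kcns3 leading with 15) and Itpr1 with 16. The leading circles of these and other small families were Itpr1 exons 43 to 44 (8 reads in hippocampus and 2 in frontal cortex), Kcnab1 exons 3 to 8 (28 and 32) and, among the anoctamins, Ano3 exons 8 to 12 (81 and 77). Found in all 36 samples were 8 circles, among them those of Kcnj6, Trpc6, Ryr2 (2), Cacna1a, Kcnk10 and Scn8a.

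Whether ion channel circRNAs differ between the tissues was asked first for single circRNAs. Of the 159, 22 had enough reads for the test (edgeR's quasi-likelihood test over 710 circRNAs, Benjamini-Hochberg adjustment). Of these 22, 7 were higher in hippocampus and 4 higher in frontal cortex. Over all 710 tested, 16.5% were higher in hippocampus and 14.1% higher in frontal cortex, 30.6% in either direction. The called circles of Kcnn2, Kcnk10 and Cacna1e had enough reads for the tests within hippocampus but not within frontal cortex. Those of Kcnh5, Kcnh1 and Cacna1b had enough within frontal cortex alone. Such circles can have entered the test through the tissue in which they are high, which limits what their calls show. The called circles of Kcnj6, Kcnt2, Cacna1c, Ryr2 and Trpc6 had enough reads within both tissues. The median log2 fold change, hippocampus over frontal cortex, was -0.09 for the 22 and 0.02 for all 710. With the 3 libraries of unusual depth left out, 11 of 24 ion channel circRNAs tested passed, beside 227 of 777 in all. Of these 11, 10 were the same circles (Trpc6 no longer passed and Kcnk2 did). When time point and tissue entered as separate terms, 9 of 22 passed, beside 215 of 710 in all. Both settings were added after the data were seen. Values below are normalized reads, that is counts scaled to the mean depth of the 36 samples, given as lowest, median and highest of 18 samples per tissue, and fold changes are log2, hippocampus over frontal cortex.

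Kcnh5 encodes Kv10.2, a voltage-gated potassium channel related to ether-à-go-go, and its leading circle had the most negative tissue difference of the 22. For the Kcnh5 circle of exons 2 to 6, normalized reads were 0, 1.89 and 4.59 in hippocampus and 4.93, 10.4 and 23.8 in frontal cortex. The tissues did not overlap. How many of all circRNAs tested separate in this way was not counted, so this only describes the circle. It had enough reads for the tests within frontal cortex but not within hippocampus. The mean was 1.72 ± 1.32 in hippocampus and 11.6 ± 4.68 in frontal cortex (SD, n = 18), a log2 fold change of -2.73 ± 0.315 (SE) or 6.64-fold, with an adjusted p of 1.38e-08 in edgeR. It held 32 reads in hippocampus and 196 in frontal cortex, and spans codons 25 to 314 of 988. The second circle of the gene, exons 2 to 7, had 15 and 80 reads and the third, exons 3 to 6, had 6 and 39, both too few for the test. The third was kept through frontal cortex alone.

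Kcnh1 encodes the related channel Kv10.1, named for ether-à-go-go. Its circle of exons 2 to 5 lay at 0, 4.81 and 10.1 in hippocampus and at 3.69, 10.8 and 16.96 in frontal cortex. No hippocampus sample exceeded the frontal cortex median, and 16 of 18 frontal cortex samples exceeded the hippocampus median. The difference was -1.02 ± 0.23 (log2 ± SE, edgeR adjusted p = 0.000873). The Kcnh5 and Kcnh1 circles begin at codons 25 and 27 of their respective reading frames. For the third family member, Kcnh7, the 8 circles summed had 74 and 130 reads.

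Among the potassium channels opened by internal ions, Kcnt2 had its most abundant circle, exons 4 to 13, higher in frontal cortex. It lay at 0, 25.4 and 35.5 normalized reads in hippocampus and at 4.07, 38.9 and 61.4 in frontal cortex, and 17 of 18 frontal cortex samples exceeded the hippocampus median. The difference was -0.72 ± 0.165 (log2 ± SE, edgeR adjusted p = 0.00103). The lowest values in the tissues were the 2 shallowest libraries. In hippocampus ZT13 replicate 1 no kept Kcnt2 circle was listed. Without those and the deepest library the difference was -0.74 (edgeR adjusted p = 6.95e-06). For the circle of exons 4 to 8 the levels were 0, 18.3 and 28.5 in hippocampus and 6.11, 21.4 and 37.2 in frontal cortex, a difference of -0.35 ± 0.184 (edgeR adjusted p = 0.153). Its 95% interval ran from -0.71 to 0.01.

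Kcnn2 encodes the small-conductance calcium-activated channel SK2, which contributes to the afterhyperpolarization. Its single-exon circle, exon 6, lay at 0, 8.38 and 13.1 in hippocampus and at 0, 4.15 and 13.2 in frontal cortex, a difference of 0.96 ± 0.292 (log2 ± SE, edgeR adjusted p = 0.0114). The Kcnma1 circle of exons 21 to 24, from the gene of the large-conductance BK channel, had means of 6.14 ± 3.01 and 5.96 ± 3.14 and did not pass the test (0.02 ± 0.312, 95% interval from -0.59 to 0.63).

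Kcnj6 encodes GIRK2, an inwardly rectifying channel opened by G protein-coupled receptors. Its only circle is the third of 4 exons, 921 bases, which hold codons 11 to 318 of 425, and it was the most abundant ion channel circRNA with 924 reads in hippocampus and 526 in frontal cortex. Normalized reads were 35.6, 46.0 and 96.5 in hippocampus and 19.8, 31.7 and 55.0 in frontal cortex. Every hippocampus sample exceeded the frontal cortex median, and 1 frontal cortex sample, ZT9 replicate 3, exceeded the hippocampus median. The difference was 0.58 ± 0.11 (log2 ± SE), 1.49-fold, with an edgeR adjusted p of 0.000126. The highest sample of each tissue was its shallowest library, and without the 3 libraries of unusual depth the difference was 0.57 (edgeR adjusted p = 5.73e-05).

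The leak channels of the Kcnk family, which set the resting potential, gave values on both sides. The circle of Kcnk10 (TREK-2), exons 2 to 4, lay at 5.07, 11.2 and 23.0 in hippocampus and at 2.55, 6.32 and 12.2 in frontal cortex, a difference of 0.69 ± 0.194 (log2 ± SE, edgeR adjusted p = 0.00658). That of Kcnk2 (TREK-1), exons 4 to 6, had means of 6.68 ± 2.25 in hippocampus and 9.18 ± 3.75 in frontal cortex (SD, n = 18) and did not pass the test, with -0.49 ± 0.213 and an edgeR adjusted p of 0.0827. It passed without the 3 libraries of unusual depth (-0.58, edgeR adjusted p = 0.0194).

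**Figure D2:**
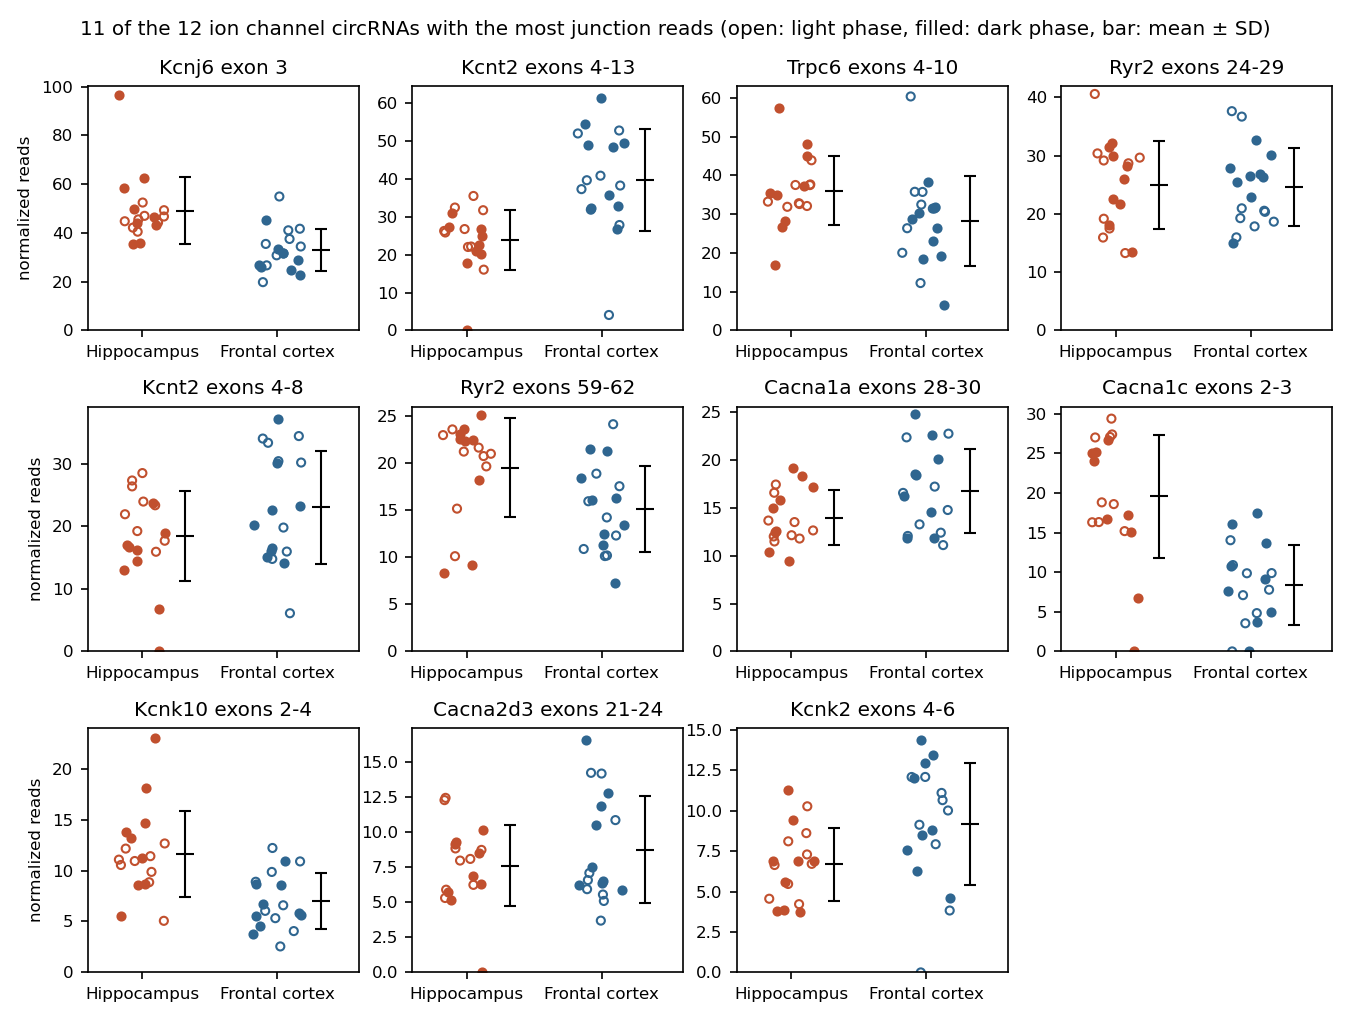
Normalized reads (y axis) of 11 of the 12 ion channel circRNAs with the most reads in each hippocampus and frontal cortex sample (points, 18 per tissue, open for the light phase and filled for the dark phase), with the mean ± SD beside each set. Kcnj6, Kcnk10 and Cacna1c lie higher in hippocampus and Kcnt2 exons 4 to 13 higher in frontal cortex, while the Ryr2 circle of exons 24 to 29 has means of 24.9 and 24.5.

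Voltage-gated calcium channels were divided by gene. Cacna1c encodes Cav1.2, an L-type channel. Its circle of exons 2 to 3 lay at 0, 18.7 and 29.4 normalized reads in hippocampus and at 0, 8.49 and 17.4 in frontal cortex. It was above the frontal cortex median in 16 of 18 hippocampus samples, and no frontal cortex sample was above the hippocampus median. The difference was 1.20 ± 0.258 (log2 ± SE), 2.3-fold, with an edgeR adjusted p of 0.000522. It was not listed in the shallowest library of either tissue, and without the 3 libraries of unusual depth the difference was 1.23. This circle is flanked by introns of 138577 bases upstream and 272276 bases downstream.

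Cacna1e encodes Cav2.3, an R-type channel. The circle of the first 3 exons of transcript Cacna1e-201 lay at 0, 8.55 and 12.5 in hippocampus and at 0, 2.37 and 6.09 in frontal cortex, a difference of 1.68 ± 0.406 (log2 ± SE, 3.21-fold, edgeR adjusted p = 0.00181). It was found in 17 of 18 hippocampus and 11 of 18 frontal cortex samples. Without frontal cortex ZT1 replicate 3 the difference was 2.41, and without ZT9 replicate 1 it was 2.39. In that transcript these exons hold no coding bases. The start of the circle falls on the start of its first exon, where that transcript has no upstream intron and no annotated acceptor. Another transcript, Cacna1e-203, has coding sequence ahead of the same downstream intron of 64510 bases. Exon 4 of Cacna1e-203, which follows that intron, begins at coding base 516. The lack of coding bases is thus stated for Cacna1e-201 only.

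The presynaptic N-type channel gene Cacna1b had its circle of exons 8 to 9 higher in frontal cortex, at 0, 2.81 and 6.86 in hippocampus and at 0, 4.59 and 11.9 in frontal cortex. The difference was -1.50 ± 0.469 (log2 ± SE, edgeR adjusted p = 0.0143), and it was no longer past the threshold with time point and tissue as separate terms (-0.97, edgeR adjusted p = 0.0841). This circle held 55 reads in hippocampus and 88 in frontal cortex, a smaller contrast than the log2 value. In that value each time point weighs the same, also one with few reads. The circle of Cacna1a, the P/Q-type channel, exons 28 to 30, did not pass the test. It lay at 9.44, 13.1 and 19.2 in hippocampus and at 11.1, 16.4 and 24.8 in frontal cortex, with a 95% interval from -0.54 to -0.01 and an edgeR adjusted p of 0.123. Among the α2δ subunits, which carry calcium channels to the membrane, the leading circles of Cacna2d1 (exons 11 to 21) and Cacna2d3 (exons 21 to 24) did not pass, with -0.67 ± 0.346 and -0.17 ± 0.216 (log2 ± SE). The value of Cacna2d1 was -1.22 without hippocampus ZT13 replicate 2 and 0.04 without frontal cortex ZT9 replicate 1.

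The ryanodine receptor gene Ryr2 had 2 abundant circles from different parts of its 105 exons. The circle of exons 59 to 62 lay at 8.39, 21.5 and 25.1 in hippocampus and at 7.32, 15.1 and 24.2 in frontal cortex, a difference of 0.40 ± 0.148 (log2 ± SE, edgeR adjusted p = 0.0369). This was the weakest of the 11 calls and was lost when any of 10 single samples was left out, with edgeR adjusted p values between 0.00984 and 0.0713. These were hippocampus ZT5 replicate 2, ZT9 replicates 1 and 3, ZT13 replicate 2 and ZT17 replicate 1, and frontal cortex ZT1 and ZT5 replicate 3, ZT13 replicate 2 and ZT21 replicates 1 and 2. The circle of exons 24 to 29 lay at 13.3, 27.2 and 40.6 in hippocampus and at 15.0, 24.2 and 37.6 in frontal cortex. Its difference was -0.01 ± 0.141, with a 95% interval from -0.28 to 0.27. The Ryr3 circle of exons 11 to 12 had means of 6.79 ± 3.24 and 5.27 ± 3.05 and did not pass (edgeR adjusted p = 0.267).

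Trpc6, a cation channel opened by diacylglycerol, had a single circle of exons 4 to 10 at 16.9, 35.3 and 57.4 in hippocampus and at 6.46, 29.5 and 60.3 in frontal cortex. The highest sample of all was a frontal cortex sample, ZT1 replicate 2. The difference was 0.38 ± 0.131 (log2 ± SE, edgeR adjusted p = 0.026), and without the 3 libraries of unusual depth it was 0.30 (edgeR adjusted p = 0.0667). With time point and tissue as separate terms it was 0.35 (edgeR adjusted p = 0.0775). The Scn8a circle of exons 13 to 15, from the sodium channel Nav1.6, did not differ past the threshold (0.13 ± 0.237, edgeR adjusted p = 0.731). No circle of the anoctamins, chloride channels, Itpr or Trpm had enough reads for this test.

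**Figure D3:**
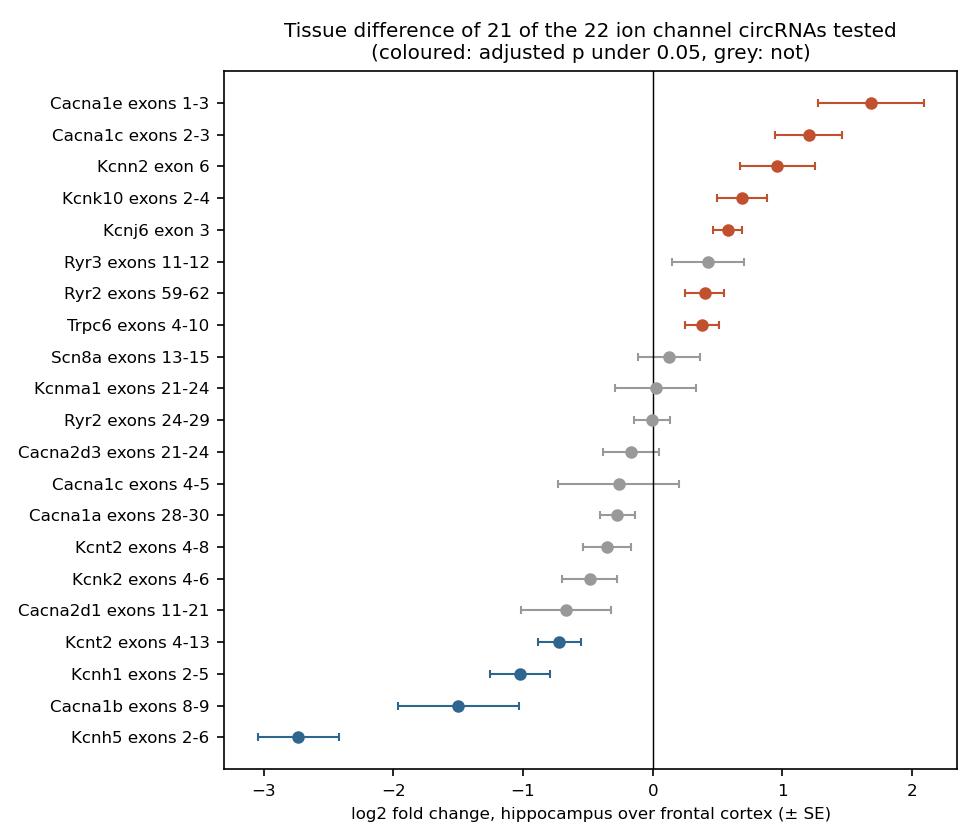
Log2 fold change of hippocampus over frontal cortex with its standard error (x axis) for 21 of the 22 ion channel circRNAs tested (y axis). Coloured points passed an adjusted p of 0.05 (red for hippocampus, blue for frontal cortex), and they run from -2.73 for Kcnh5 to 1.68 for Cacna1e.

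Summing the kept circRNAs of each host gave 24 ion channel genes with enough reads. Of these, 5 were higher in hippocampus and 6 higher in frontal cortex, where over all 702 host genes tested 16.1% and 15.5% were, 31.6% in either direction. The hippocampal genes were Cacna1e (1.56 ± 0.311), Cacna1c (1.07 ± 0.181), Kcnk10 (0.66 ± 0.21), Kcnj6 (0.56 ± 0.116) and Trpc6 (0.36 ± 0.134), all as log2 ± SE. The cortical genes were Kcnh5 (-2.81 ± 0.24), Kcnq5 (-1.30 ± 0.293), Kcnh1 (-0.74 ± 0.194), Cacna2d1 (-0.74 ± 0.209), Kcnt2 (-0.69 ± 0.143) and Cacna1a (-0.35 ± 0.131). Cacna2d1 and Cacna1a passed as sums over their circles although their tested circle did not, and Kcnq5 (an M-current subunit) passed as a sum with no circle abundant enough to test. By contrast, the sums of Kcnn2 (0.65 ± 0.284), Cacna1b (-0.30 ± 0.248) and Ryr2 (0.23 ± 0.0959) did not pass. Kcnq5 had 3.81 ± 2.25 normalized reads in hippocampus and 8.85 ± 3.30 in frontal cortex, and Cacna2d1 had 10.2 ± 4.73 and 17.4 ± 8.28 (SD, n = 18). The value of Cacna1e was 2.29 without frontal cortex ZT9 replicate 1. Cacna1a lost its call when any of 24 of the 36 samples was left out (edgeR adjusted p from 0.0284 to 0.136). Trpc6 lost it without hippocampus ZT5 replicate 3 or ZT17 replicate 1, or without frontal cortex ZT1, ZT5 or ZT17 replicate 1 (edgeR adjusted p up to 0.0717). The host values are sums of circular reads, and linear mRNA of the hosts was not analysed here. Apart from Kcnj6 and Trpc6, with 1 circle each, the called sums include circles kept through 1 tissue alone. Kept in hippocampus and frontal cortex were 9 and 3 of 10 Cacna1c circles and 2 and 6 of 6 Kcnh5 circles. For Kcnt2 they were 10 and 8 of 11. Such sums can be over circles chosen by the tissue in which they are high, so their calls add no support to the tests of single circles. Fewer cells that make a circle and fewer circles per cell cannot be told apart in tissue samples.

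Whether 2 circles of one host change in proportion was tested for the 3 hosts with a pair among the 22, after the tissue test had been seen. The share of the first circle in the reads of both was compared over samples (2-sided permutation test with 100000 resamples, adjusted over the 3 hosts). For Kcnt2, exons 4 to 13 made up 57.0% ± 7.72 of the reads of that circle and exons 4 to 8 in hippocampus (SD, n = 17) and 62.2% ± 11.3 in frontal cortex (n = 18), with p = 0.117. For Ryr2, exons 24 to 29 made up 55.5% ± 12.4 and 61.6% ± 9.8 of the reads of both circles (n = 18 each), with p = 0.11 and an adjusted p of 0.117. For Cacna1c, exons 2 to 3 made up 84.5% ± 15.0 (n = 17) and 66.8% ± 29.7 (n = 18) beside exons 4 to 5, with p = 0.0306 and an adjusted p of 0.0918. None of the 3 passed, so a different tissue pattern of the circles within a host was not shown.

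Of the 159 circRNAs, 129 were kept in hippocampus and 103 in frontal cortex, 73 in both (45.9%, against 54.7% of all 6656). Most of the others had reads in both tissues and met the replicate rule in one. No read in frontal cortex was listed for 17 (10.7%, against 7.09% of all 6656), and none in hippocampus for 5 (3.14%, against 3.34%). With each library thinned to 6754 reads, 42 were kept in hippocampus and 44 in frontal cortex. Among those without a cortical read, the leading 5 were the Trpm3 circles of exons 2 to 8 (24 reads in 9 samples), exons 7 to 9 of transcript Trpm3-206 (18 in 5) and exons 2 to 6 (17 in 5), a Scn8a circle (19 in 6) and the Ano4 circle of exons 3 to 8 (18 in 6). Those without a hippocampal read were the Kcnh5 circles of exons 4 to 7 (14 reads in 6 samples) and 3 to 7 (7 in 3), the Kcnh1 circle of exons 3 to 5 (11 in 4), the Kcnt2 circle of exons 6 to 13 (7 in 3) and the Kcnma1 circle of exons 15 to 18 (5 in 2).

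Trpm3, a heat- and steroid-activated cation channel, had 4 kept circles with 135 reads in hippocampus and 7 in frontal cortex. All 4 met the replicate rule through hippocampus alone, so these sums are over circles chosen by the tissue in which they are high and support no difference. Its most abundant circle, exons 7 to 8, was found in 15 of 18 hippocampus samples and 3 of 18 frontal cortex samples. At 3.75 ± 2.49 and 0.573 ± 1.40 normalized reads (SD, n = 18) it was too low for the test. Trpm3 is also known from the choroid plexus, which can be carried along with hippocampal tissue. None of the 6 choroid plexus markers (Ttr, Folr1, Kl, Clic6, Otx2, Htr2c) had a kept circRNA in either tissue. The same held for the 6 astrocyte and the 6 microglia markers, while 2 of 9 oligodendrocyte markers had 29 reads in hippocampus and 11 in frontal cortex. Of the striatal markers, Rarb and Pde10a had 8 reads in hippocampus and 73 in frontal cortex. Nwd2 alone of the 6 thalamic markers had 14 and 19, and Erbb4 alone of the 8 interneuron markers had 53 and 30. The part of such cells in the tissue differences was not tested.

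Proteins that act with these channels were followed in a list of 62 partner genes, such as the NALCN leak channel complex, Dpp6 and Dpp10 of the Kv4 complex, ankyrins, Dlg scaffolds and calcium pumps and exchangers. Of these, 24 had 81 kept circRNAs, and 11 genes had enough reads for the test of host sums. Of the 11, 3 were called, where 31.6% of all 702 host genes were. Higher in hippocampus was 1, Slc8a1, the sodium-calcium exchanger, at 179 ± 16.4 and 136 ± 34.8 normalized reads (0.41 ± 0.074, edgeR adjusted p = 1.74e-05). Higher in frontal cortex were 2, Dpp10 at 1.13 ± 1.27 and 7.70 ± 5.23 (-3.11 ± 0.55, edgeR adjusted p = 1.64e-05) and the scaffold Dlg1 at 17.9 ± 5.86 and 28.5 ± 7.07 (-0.68 ± 0.134, edgeR adjusted p = 7.83e-05). Unc79 and Nalcn did not pass, with 78.2 ± 18.9 and 78.3 ± 24.8 normalized reads for Unc79. Of 10 partner circRNAs tested singly, 4 were higher in hippocampus and 1 in frontal cortex, where 16.5% and 14.1% of all 710 were.

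The study's main question was how circRNAs vary over the light-dark cycle. In the comparison of the dark with the light phase, none of the 14 ion channel circRNAs tested in hippocampus and none of the 14 in frontal cortex passed, and 0.0% of the 582 and 518 circRNAs tested did. At an unadjusted p under 0.05 there was 1 of 14 in hippocampus and 0 of 14 in frontal cortex, and DESeq2 called none of them. Summed per host, 0 of 20 genes in hippocampus and 0 of 17 in frontal cortex passed, and 0.0% of 595 and 539 host genes did, with 1 unadjusted in each tissue and 0 called by DESeq2.

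The circle of exons 4 to 8 of Kcnt2 had the smallest unadjusted p of single circRNAs in hippocampus. Its normalized reads in the light were 23.6 ± 6.73 (ZT1), 23.1 ± 1.04 (ZT5) and 21.4 ± 5.18 (ZT9), and in the dark 12.3 ± 11.9 (ZT13), 16.1 ± 1.43 (ZT17) and 14.0 ± 6.42 (ZT21), as SD with n = 3 each. All 3 dark time points lay below the 3 light ones, with a log2 fold change, dark over light, of -0.61 ± 0.246 and an edgeR adjusted p of 0.925. Without the shallowest and the deepest hippocampus library the difference was -0.45. Next came Kcnt2 exons 4 to 13 (-0.29 ± 0.216) and Kcnj6 exon 3 (0.17 ± 0.145). Among host sums in hippocampus the smallest were Kcnt2 (-0.39 ± 0.187), Kcnk10 (0.43 ± 0.253) and Cacna1e (0.36 ± 0.275). For the frontal cortex they were Kcnma1 (-1.02 ± 0.358), with 10.8 ± 1.78 normalized reads in the light and 6.22 ± 3.78 in the dark phase (SD, n = 9 each), then Trpc6 (-0.43 ± 0.225) and Scn8a (-0.47 ± 0.319). The adjusted p of Kcnma1 was 0.97 in edgeR. Of single circles in frontal cortex, Trpc6 (-0.40 ± 0.225), Kcnj6 (-0.25 ± 0.176) and Kcnt2 exons 4 to 8 (-0.23 ± 0.245) came first.

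None of the ion channel circRNAs with enough reads passed the tests over the 6 time points or of a 24-h cosine. The test over 6 time points called 0 of 14 in hippocampus, beside 0.0% of 582, and 0 of 14 in frontal cortex, beside 0.193% (1 of 518). The cosine test called 0 of 14 in each tissue, beside 0.0% of 582 and 518. Without the filter on low counts it called 15 of 129 in hippocampus and 13 of 103 in frontal cortex, among 614 of 5505 and 521 of 4790 in all. DESeq2, run with the filter, called none of the 14 of each tissue in either test. At an unadjusted p under 0.05 only Trpc6 appeared, once in each tissue. In hippocampus it had 35.7 ± 3.29 (ZT1), 36.6 ± 6.34 (ZT5) and 34.1 ± 2.93 (ZT9) normalized reads in the light, then 43.2 ± 12.4 (ZT13), 42.9 ± 6.57 (ZT17) and 24.0 ± 6.18 (ZT21) in the dark. In frontal cortex they were 41.5 ± 16.3, 30.5 ± 9.07, 23.3 ± 9.95, 25.4 ± 6.7, 16.2 ± 8.65 and 32.4 ± 5.04 at the same times (SD, n = 3 each). The edgeR adjusted p was 0.999 for the 6 time points in hippocampus and 0.909 for the cosine in frontal cortex. After it, the smallest unadjusted p values belonged to Kcnj6 and Ryr3 over the 6 time points in hippocampus and to Cacna2d3 and Kcnj6 in frontal cortex. For the cosine they belonged to Kcnt2 exons 4 to 8, Trpc6 and Kcnj6 in hippocampus and to Ryr2 exons 59 to 62 and Kcnt2 exons 4 to 13 in frontal cortex.

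**Figure D4:**
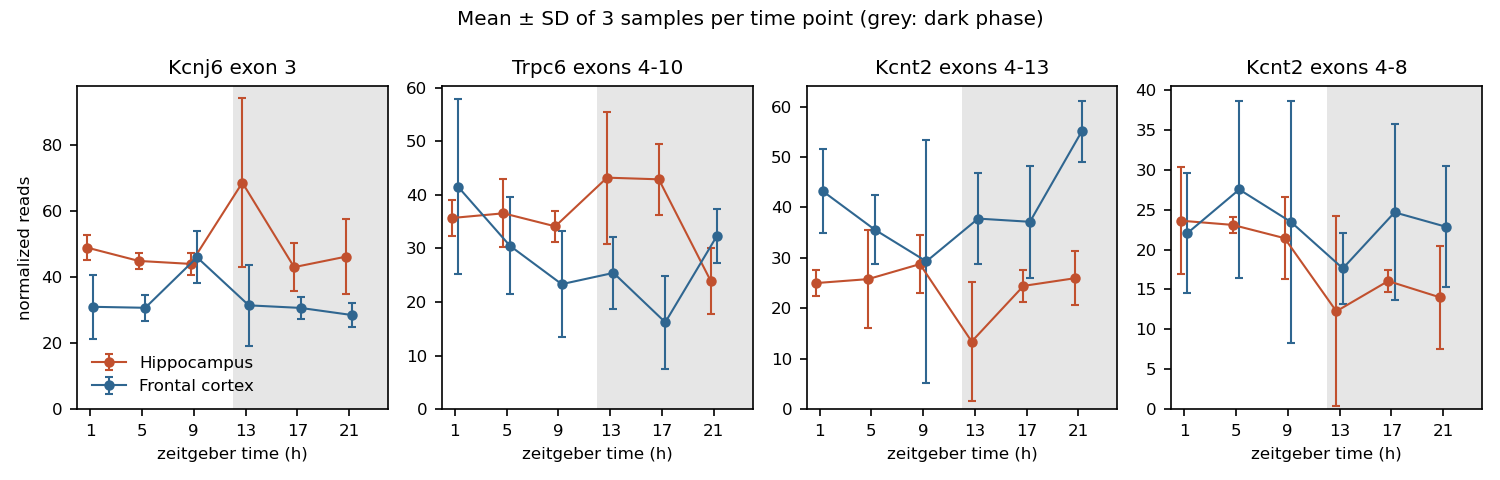
Normalized reads (y axis, mean ± SD of 3 samples) of 4 circRNAs at 6 zeitgeber times (x axis, hours, grey for the dark phase) in hippocampus (red) and frontal cortex (blue). Trpc6 is lowest at ZT21 in hippocampus (24.0) and at ZT17 in frontal cortex (16.2), and no circle passed a test over time.

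The difference between dark and light phase was also compared between the tissues, as an interaction. Of 22 ion channel circRNAs, 0 passed, beside 0.0% of 710, with 0 at an unadjusted p under 0.05 and 0 called by DESeq2. The smallest p values belonged to Cacna2d1 exons 11 to 21 (-1.15 ± 0.676), Kcnj6 exon 3 (0.38 ± 0.221) and Ryr3 exons 11 to 12 (-0.89 ± 0.555), each as the log2 change from light to dark in hippocampus minus that in frontal cortex, with edgeR adjusted p of 0.962. The Cacna2d1 value was -2.54 without frontal cortex ZT9 replicate 1 and -0.57 with separate terms for tissue and phase. With 9 samples per phase, the standard errors of the tested circles leave room for phase differences within a tissue that these read numbers could not detect.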

How the data were processed

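Total RNA depleted of ribosomal RNA was sequenced from 36 samples. The authors mapped the reads with BWA to GRCm38 and called head-to-tail junctions with CIRI2, and the deposited counts are whole numbers of junction reads per circRNA and sample, not normalized and not pooled. One further column of the hippocampus table (1 in all), with no sample of its own, was not used. Samples were grouped by tissue and time point from their labels. The labels do not say that replicates are separate animals, so p-values measure the spread between samples. Members, gene lists and tests were chosen with earlier results of these data known.

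For counts, edgeR (version 4.0.16, under R 4.3.3) was used with TMM scaling (default filter on low counts, quasi-likelihood test, group means, Benjamini-Hochberg adjustment over all circRNAs or host genes tested, threshold 0.05). Tissue was contrasted over 12 groups, phase over 6 time points, and a 24-h rhythm by cosine and sine terms. The fits were tested on simulated data. Alternatives were DESeq2 1.42.0, its size factors in edgeR, library totals, no filter, the replicate block, separate terms and leaving out samples. Ends, exons and sequences came from GENCODE M21. Named were the 12 circles with most reads, the leading circle of each family, circles past a threshold or else the 3 smallest p values per test, the hosts with most circles and reads, the leading 5 of one tissue only, and the widest and narrowest circle. Kcnh5 exons 2 to 7 and 3 to 6, the longest and shortest spliced circles and all values of hippocampus ZT13 replicate 1 were chosen after their values were seen. None of the 36 pairs of replicates within a tissue and time point was a copy. They differed by at least 1.47 times the sampling noise (chi-square per degree of freedom). Samples of different groups were not compared. Because counts below 2 are listed as 0, this check cannot exclude 2 libraries of the same RNA. With circular reads alone, a change shared by all circRNAs cannot be seen. A few items are not reported here.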

Additional observations from a re-analysis of the deposited data

Results flagged for a closer look

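Within each tissue and phase (9 samples), 56 sets of values were searched for a sample standing apart from the rest (Dixon's criterion, which chance meets in about 1 of 20 sets), and 10 were found. Of these, 4 came from hippocampus ZT13 replicate 1, the shallowest library. It had the highest share of ion channel reads of the dark phase (2.95%, next 2.37%), the fewest ion channel circRNAs found (26, next 50), the highest Kcnj6 level (96.5 normalized reads, next 62.6) and the lowest level of Kcnt2 exons 4 to 13 (0, next 17.7). The deepest library, hippocampus ZT1 replicate 3, had the most ion channel circRNAs found in the light phase (108, next 72). Trpc6 was highest in frontal cortex ZT1 replicate 2 (60.3 normalized reads, next 35.8) and, in the hippocampal light phase, in ZT5 replicate 3 (43.9, next 37.7). Kcnj6 was highest of the cortical dark phase in ZT13 replicate 1 (45.3, next 33.2). Cacna2d3 exons 21 to 24 was not listed in hippocampus ZT13 replicate 3 (0, next 5.15), and Kcnk10 was lowest of the light phase in hippocampus ZT9 replicate 2 (5.07, next 8.85).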

How the results depend on the processing

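Over 1075 values of the tissue differences under other settings, 994 kept direction and side of the threshold, 54 fell below it and 27 changed sign, all of Ryr2 exons 24 to 29, which lies at zero (0.028 with library totals, 0.061 without the filter, 0.014 with the replicate block, -0.039 to 0.112 leaving out one sample). Most of the 1075 values came from fits that left out a single sample, so they are not independent. They cover mostly circles and genes called in the main fit, and Kcnk2 is not among them. The number of ion channel circRNAs with a tissue difference lay between 8 of 22 (replicate block) and 15 of 159 (no filter). Beside these stood 187 of 710 and 346 of 6656 circRNAs in all. Of ion channel host genes it lay between 9 of 24 (replicate block) and 12, the latter of 24 with DESeq2. Over all host genes these settings called 193 and 231 of 702. Leaving out a single sample gave 10 to 12 circRNAs and 9 to 14 host genes. Calls over all features were not counted for these fits, so the ranges show nothing particular to ion channels. Same-numbered hippocampus and cortex samples did not deviate together (r from -0.17 to 0.15 over 18 pairs). With few reads per circRNA, this check cannot show whether they come from the same mouse. Under that replicate block the calls of Cacna1b, Trpc6 and Ryr2 exons 59 to 62 were lost (adjusted p 0.161, 0.113 and 0.0682 in edgeR), and those of Kcnk10, Trpc6 and Ryr2 without the filter (0.0585, 0.07 and 0.177). The block gave 0 ion channel calls in each test over time or phase. Without the filter the cosine called 15 ion channel circRNAs in hippocampus and 13 in frontal cortex, among 614 and 521 of all circRNAs. The cause was not tested. Kept in hippocampus and frontal cortex were 61 and 56 when found in all 3 replicates, 473 and 409 when found in any sample, and 42 and 44 after thinning. The share of reads was 1.96% and 1.93% of all listed circRNAs, and 2.46% in frontal cortex without Cdr1as. Depth limits the tests: 137 of 159 circles had too few reads.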
